A study of Mus musculus with 34 samples.

Results

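Cyclic AMP and chloride secretion genes of the mouse kidney were examined in a polycystic kidney model as a set of 10 genes chosen by name. They were *Avpr2*, *Adcy3*, *Adcy5*, *Adcy6*, *Adcy9*, *Pde1a*, *Pde4c*, *Prkar1a*, *Cftr* and *Slc12a2*, of 23509 genes in the deposited count tables, and all 10 were among the 15644 genes that passed the filter on low counts. Polyadenylated RNA of whole kidney was sequenced in 34 samples from C57BL6 mice on postnatal day 28 (P28). *Pkd2*-KO mice carried floxed *Pkd2* alleles and a Cre recombinase driven by the *Pkhd1* promoter, which is active in kidney tubules, and received either RGLS4326 at 20 mg per kg or PBS subcutaneously on P10, P11, P12 and P19 (n = 11 each). Age-matched non-transgenic mice that received nothing (UNT, n = 12) were the controls, so genotype and injection differed together between UNT mice and both other groups. RGLS4326 is a modified oligonucleotide that pairs with the seed of the microRNA miR-17 and so inhibits it. The labels spell the genotype "Pdk2KO". *Pkd2* itself averaged 274 CPM (read counts scaled per library by TMM) in UNT, 160.1 CPM in PBS and 209.8 CPM in RGLS4326 kidneys.

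In the collecting duct, vasopressin binds the V2 receptor, the product of *Avpr2*, and through a stimulatory G protein activates adenylyl cyclases, which make cyclic AMP (cAMP). Phosphodiesterases break cAMP down, and protein kinase A (PKA) carries its signal, with *Prkar1a* encoding a regulatory subunit that holds the catalytic subunits inactive until cAMP binds. In cyst epithelium cAMP is known to promote both proliferation and fluid secretion, in which chloride enters the cell through the cotransporter NKCC1 (*Slc12a2*) and leaves it through the PKA-activated channel CFTR (*Cftr*).

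Because the drug acts through the miR-17 seed, the seed and its match in a known target were compared with the 3′UTRs of the genes examined here. Mature sequences of miR-17 and of 2 other members of its family are shown 5′ to 3′ from RefSeq, with the seed (bases 2 to 8) in capitals. The first lies at chr14:115043684-115043706, the second at chr14:115044183-115044205 (both plus strand) and the last at chr5:138165787-138165807 (minus strand), on GRCm38.p6.
miR-17-5p: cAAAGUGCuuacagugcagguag
miR-20a-5p: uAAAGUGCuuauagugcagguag
miR-106b-5p: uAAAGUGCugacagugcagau
The site in the 3′UTR of *Pkd2* at chr5:104503821-104503828 (GRCm38, plus strand) is shown in capitals inside a window of 30 bases, as an example of the longest match searched, GCACTTTA.
Pkd2 site: tataattttctGCACTTTAatttattttac

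None of the 10 genes held such a match. A 7-base match (GCACTTT or CACTTTA, both contained in the 8-base match) was searched in the longest 3′UTR that GENCODE M21 gives each gene. These UTRs measured from 369 bases for *Adcy9* to 2770 bases for *Slc12a2*. Of them, 0 of the 10 held one. The same count, 0, was found when every annotated 3′UTR of each gene was searched. Among the 14823 tested genes with a 3′UTR, 21.1% held a match. A missing match describes these letters only. The promoters were searched for the cAMP response element TGACGTCA, a palindrome, in windows from 250 bases before to 50 after each RefSeq start site. An element was found for *Prkar1a*, at chr11:109650900-109650907 (GRCm38.p6, plus strand), in 2 overlapping windows of its 6, and in no window of *Avpr2*, *Cftr*, *Adcy3*, *Adcy5*, *Adcy9*, *Pde1a* or *Pde4c*. *Adcy6* and *Slc12a2* had no window and were not searched. Of 27025 genes with a window, 2.03% held the element. It is shown in capitals because it was the only full element found among these genes.
Prkar1a element: ggccagagcgaggcgcatTGACGTCAgcag

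The libraries held from 17603122 to 54981992 reads in genes, and each of the 10 genes had at least 123 counts in every library. The labels do not say whether a table pools mice. The numbers in the table names restart at 1 in 3 blocks, each with 3 or 4 libraries of every group. The labels do not say what a block is, and values within blocks are given beside the edgeR results of the 10 genes whose call depended on them. In the treatment contrast, edgeR called 41 genes of the whole table higher and 13 lower within block 1, 0 within block 3 (2826 at an unadjusted p under 0.05), and 2164 higher and 1901 lower within block 2, so a missing treatment call in blocks 1 and 3 says little about a single gene. Reads in no gene made up 9.84% to 11.3% of reads in UNT, 5.18% to 8.995% in PBS and 4.94% to 12.0% in RGLS4326 libraries. The UNT and PBS ranges did not overlap, so disease values adjusted for this share cannot separate it from the group. Whether the share follows from disease or treatment was not tested. Reads that did not map uniquely made up 22.8% to 25.7% in UNT, 14.8% to 19.4% in PBS and 14.8% to 19.1% in RGLS4326 libraries. PBS replicate 9 stood apart, with the highest *Avpr2* and the lowest level of 8 of the other genes in its group. UNT replicate 10 was the highest of its group for *Cftr*, *Pde1a*, *Prkar1a* and *Slc12a2* and the lowest for *Adcy5*, *Adcy6* and *Pde4c*. Results of the 10 genes that turned on either library are given with and without it.

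The groups were compared in pairs, each with the quasi-likelihood test of edgeR in a single fit of all 34 libraries. PBS against UNT is called the disease contrast, RGLS4326 against PBS the treatment contrast, and RGLS4326 against UNT the residual contrast. Adjusted p is the Benjamini-Hochberg value of that two-sided test over all tested genes, and a gene was called below 0.05. Of the 10 genes, 4 were higher and 3 lower in the disease contrast, while 82.1% of all tested genes were called (43.1% higher and 39.0% lower). With treatment 1 was higher and 1 lower, where 33.8% of all tested genes were called (15.3% higher and 18.5% lower). In the residual contrast 5 were higher and 3 lower, against 77.7% of all tested genes (40.8% higher and 36.9% lower). Their median log2 fold change was 0.02 in the disease contrast and 0.09 in the treatment contrast, and that of all tested genes was 0.04 and 0.00, respectively.

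**Figure D1:**
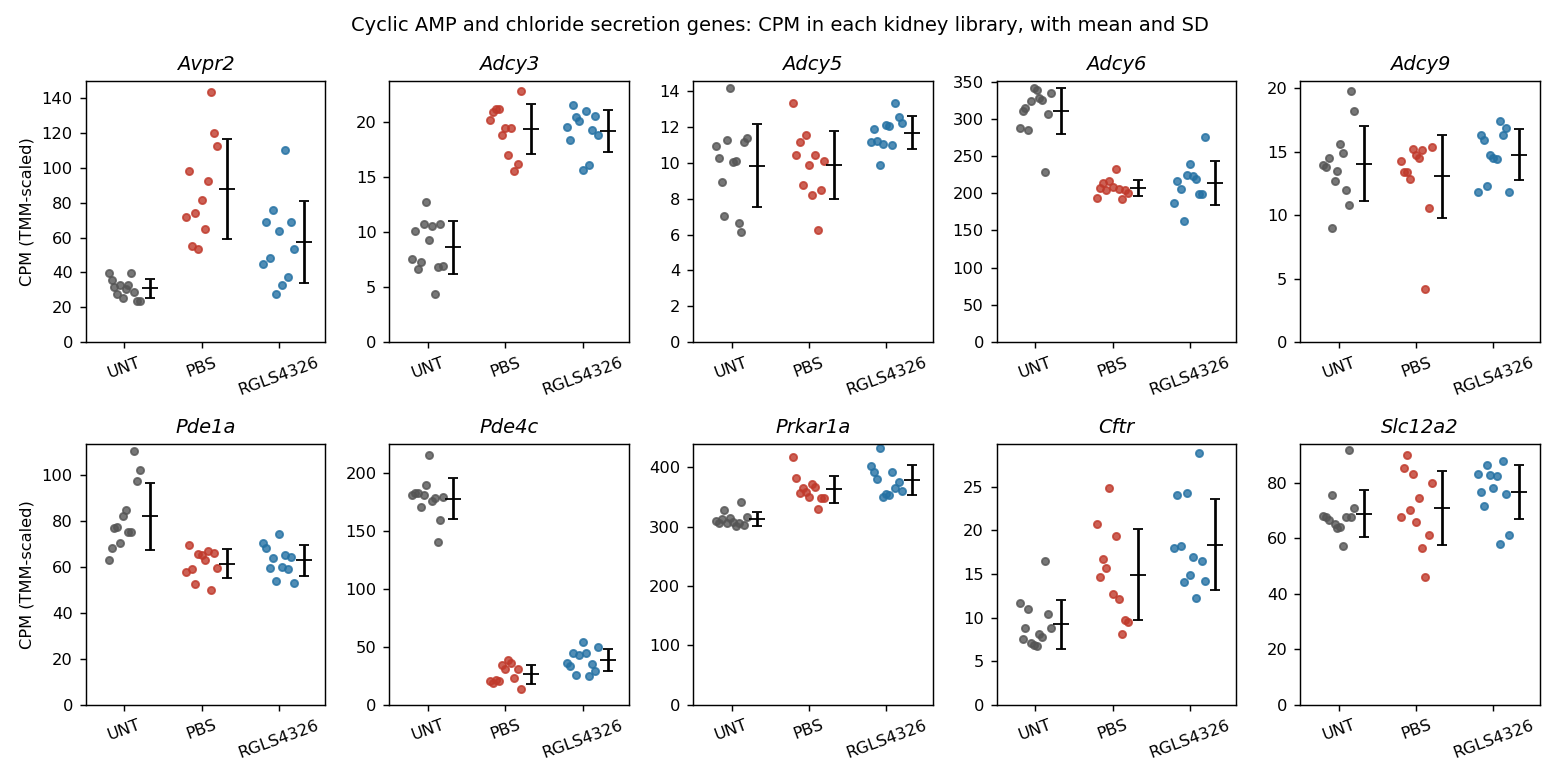
CPM (vertical axes from 0, TMM-scaled, scales differ between panels) of the 10 genes in each of 12 UNT, 11 PBS and 11 RGLS4326 kidneys; each point is 1 library and the bar beside the points is the mean with its SD. *Pde4c* in PBS kidneys (13.7 to 38.2 CPM) lay far below UNT (140.3 to 215 CPM), and *Avpr2* was highest in PBS kidneys and spread widely in RGLS4326 kidneys (27.7 to 110.2 CPM).

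The receptor at the head of the pathway, *Avpr2* (chromosome X, 73892102 to 73895502, plus strand), was higher in cystic kidneys and lower again after RGLS4326. Its level ranged from 23.7 to 39.7 CPM in UNT kidneys with a median of 31.0 CPM. In PBS kidneys it ranged from 53.5 to 143.9 CPM with a median of 81.7 CPM, and in RGLS4326 kidneys from 27.7 to 110.2 CPM with a median of 53.3 CPM. Every PBS kidney lay above every UNT kidney, and the RGLS4326 kidneys overlapped both other groups. *Avpr2* was higher in disease by 1.51 on the log2 scale (SE 0.18, edgeR adjusted p = 1.54e-09). With treatment it changed by -0.62 (SE 0.18, edgeR adjusted p = 0.012), and 10 of 11 RGLS4326 kidneys were at or below the PBS mean of 88.1 CPM. It remained above UNT after treatment by 0.89 (SE 0.18, edgeR adjusted p = 2.85e-05), and within blocks 1, 2 and 3 by 0.79, 0.44 and 1.22, of which the value in block 2 was not called (edgeR adjusted p = 0.135). The coefficient of variation of *Avpr2* was 17.7% in UNT, 32.5% in PBS and 41% in RGLS4326 kidneys.

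The treatment difference in *Avpr2* had the same sign in each block but was not called within any of them. In blocks 1 and 3 few or no genes of the whole table were called in that contrast. The difference in *Avpr2* was -0.33 (edgeR adjusted p = 0.392) in block 1, -0.70 (adjusted p = 0.0553) in block 2 and -0.79 (adjusted p = 0.262) in block 3. Without PBS replicate 9 it was -0.51 (edgeR adjusted p = 0.032). Adjusted for the no-gene read share of each library, it was -0.33 (edgeR adjusted p = 0.302), and the disease difference was 0.90 (adjusted p = 0.000995). Across the 34 libraries, after group means were subtracted, *Avpr2* fell as that share rose (Pearson r = -0.517, adjusted permutation p = 0.0349; Spearman rho = -0.493, adjusted permutation p = 0.0229, over 10 genes tested), and r was -0.425 without the 2 libraries farthest in that share. Within blocks 1, 2 and 3 r was -0.379, -0.332 and -0.506. Of the 2886 exon bases of *Avpr2*, 2347 overlap *Arhgap4* on the opposite strand, and since the strand setting of the counting is not given in the sources used here, reads of both genes may have been exchanged or lost. *Arhgap4* stood at 10.6, 11.9 and 12.7 CPM in UNT, PBS and RGLS4326 kidneys, with log2 fold changes of 0.17 (edgeR adjusted p = 0.148) and 0.09 (adjusted p = 0.568) in the disease and treatment contrasts.

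Markers of collecting duct principal cells, in which the V2 receptor is known to reside, moved with *Avpr2*. Markers of the thick ascending limb moved the other way. Of these 7, 6 were lower and 1 higher in the disease contrast, and 4 were higher and 1 lower with treatment. Of 10 markers of collecting duct principal cells, 9 were higher and 0 lower in the disease contrast, and 6 were lower and 0 higher in the treatment contrast. Their summed level was 1509 to 1828 CPM in UNT, 2036 to 3707 CPM in PBS and 1412 to 3429 CPM in RGLS4326 kidneys, and 0 of the 10 were at 0 in every library of a group. In bulk tissue, fewer cells of a type and less RNA per cell cannot be told apart. *Avpr2* was therefore also expressed relative to these markers, as log2(CPM + 0.5) minus the mean of the 10 markers on the same scale. This difference averaged -1.49 ± 0.16 (SD) in the 12 UNT kidneys, -1.14 ± 0.25 (n = 11) in PBS and -1.33 ± 0.20 (n = 11) in RGLS4326 kidneys. It was higher in PBS than in UNT by 0.35 (two-sided permutation test, adjusted p = 0.00088 over 4 tests, 11 of 11 PBS kidneys above the UNT mean). Within blocks 1, 2 and 3 it was 0.13, 0.24 and 0.65 (exact permutation tests, adjusted p = 0.457, 0.229 and 0.0381). With 4 kidneys against 4 the smallest exact p is 0.0286 and with 3 against 4 it is 0.0571, so tests within blocks can rarely pass after adjustment, and a missing call there says nothing about stability. Between RGLS4326 and PBS it differed by -0.19, which did not pass the permutation test (adjusted p = 0.0735), and by -0.02 (adjusted p = 0.906) when *Aqp2*, *Aqp3* and *Hsd11b2* were the only markers. The genes whose levels were most like those of *Avpr2* across 34 libraries, after group means were subtracted, were *Fxyd4* (r = 0.925), *Elf5* (r = 0.899) and *Hsd11b2* (r = 0.897), and all 3 are on that marker list.

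Among the adenylyl cyclases, *Adcy3* was higher and *Adcy6* lower in cystic kidneys, *Adcy5* and *Adcy9* passed the test in neither the disease nor the treatment contrast, and RGLS4326 changed none of the 4 by the test. *Adcy6* (chromosome 15, 98589973 to 98610076, minus strand), a calcium-inhibited cyclase of the kidney tubule, was the most abundant. It ranged from 229.0 to 341.6 CPM (median 319.0) in UNT, from 191.8 to 232.0 CPM (median 205.9) in PBS and from 162.1 to 275.0 CPM (median 217.1) in RGLS4326 kidneys. Only the lowest UNT library, replicate 10, overlapped the PBS range. *Adcy6* differed by -0.58 on the log2 scale in disease (SE 0.07, edgeR adjusted p = 4.81e-10) and by 0.05 with treatment (95% confidence interval -0.09 to 0.18, adjusted p = 0.595). After adjustment for no-gene reads the disease difference in *Adcy6* was -0.33 (edgeR adjusted p = 0.000324) and the treatment difference -0.09 (adjusted p = 0.376).

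*Adcy3* (chromosome 12, 4133103 to 4213525, plus strand), a cyclase known from olfactory signalling and from primary cilia, moved in the opposite direction. It ranged from 4.36 to 12.7 CPM (median 8.39) in UNT, from 15.5 to 22.8 CPM (median 19.5) in PBS and from 15.6 to 21.5 CPM (median 19.5) in RGLS4326 kidneys. Every kidney of both *Pkd2*-KO groups lay above every UNT kidney, and the 2 *Pkd2*-KO groups covered nearly the same range. In disease *Adcy3* was higher by 1.16 (SE 0.11, edgeR adjusted p = 1.72e-11) on the log2 scale, and its treatment difference was -0.01 (95% confidence interval -0.24 to 0.22, adjusted p = 0.953). Exons of *Adcy3* overlap *Cenpo* on the opposite strand over 1380 bases, and *Cenpo* was higher by 0.66 (edgeR adjusted p = 1.76e-10) in the disease contrast, with means of 5.53 CPM (UNT) and 8.72 CPM (PBS). Whether reads of *Cenpo* were counted for *Adcy3* was not tested. Of 7 fibroblast and pericyte markers, 7 were higher and 0 lower in the disease contrast, and 1 was higher and 0 lower with treatment. Their summed level was 606.1 to 1509, 3195 to 6632 and 4273 to 6285 CPM in UNT, PBS and RGLS4326 kidneys. The gene most like *Adcy3* across libraries, after group means were subtracted, was *Adamts2* (r = 0.812). The part of fibroblasts and pericytes in the *Adcy3* result was not tested.

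*Adcy5* (chromosome 16, 35154877 to 35305738, plus strand), the close relative of *Adcy6*, had medians of 10.2, 10.1 and 11.9 CPM in UNT, PBS and RGLS4326 kidneys, and the 3 groups overlapped. The disease difference in *Adcy5* was 0.01 (95% confidence interval -0.22 to 0.23, edgeR adjusted p = 0.965), and its treatment difference 0.25 (interval 0.01 to 0.48, adjusted p = 0.0911). All 11 RGLS4326 kidneys (9.92 to 13.4 CPM) lay above the PBS mean of 9.89 CPM. Without PBS replicate 1 the treatment difference in *Adcy5* was called, at 0.30 (edgeR adjusted p = 0.0443), as it was with the 2 groups alone (0.25, adjusted p = 0.049). Within block 1 the treatment difference in *Adcy5* was -0.06 (edgeR adjusted p = 0.845). Its residual difference of 0.25 (edgeR adjusted p = 0.0417) was lost when any of 10 single libraries was left out, among them UNT replicate 10 (0.20, adjusted p = 0.0825), and was not called within any block, with DESeq2 (0.22, Wald test adjusted p = 0.0715), with DESeq2 size factors, with no filter or with the 2 groups alone. *Adcy9* (chromosome 16, 4287529 to 4420498, minus strand) had medians of 13.9, 14.3 and 14.8 CPM, and PBS replicate 9, at 4.18 CPM, lay below every other library. *Adcy9* differed by -0.10 (edgeR adjusted p = 0.484) between PBS and UNT and by 0.18 (adjusted p = 0.32) between RGLS4326 and PBS, and -0.04 and 0.09 without that library (edgeR adjusted p = 0.699 and 0.484).

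The make-up of adenylyl cyclase RNA differed between UNT and cystic kidneys. Counts of the 10 genes *Adcy1* to *Adcy10* were divided by exon length and expressed as shares of their sum in each library. *Adcy6* made up 77.2% ± 2.18 (SD, n = 12) in UNT, 59.9% ± 3.16 (n = 11) in PBS and 56.7% ± 2.80 (n = 11) in RGLS4326 kidneys. *Adcy3* made up 2.33% ± 0.55, 6.07% ± 0.68 and 5.62% ± 0.94 in the same order. In the disease contrast the share of *Adcy6* was lower by 17.4 percentage points (0 of 11 PBS kidneys above the UNT mean) and that of *Adcy3* higher by 3.74 points (11 of 11 above). For both, the permutation test gave p = 2e-05, the smallest value its 100000 resamples can give, and an adjusted p of 8e-05 over 8 tests. The shares of *Adcy5* and *Adcy9* did not pass in either contrast. Between RGLS4326 and PBS the share of *Adcy6* differed by -3.13 points (permutation test, adjusted p = 0.0539), and by -3.65 points (adjusted p = 0.0225) when counts were not divided by length. *Adcy7*, a cyclase common in leukocytes, made up 1.97% ± 0.30 in UNT, 15.96% ± 1.91 in PBS and 18.0% ± 2.27 in RGLS4326 kidneys. It was higher by 2.80 (SE 0.12, edgeR adjusted p = 2.25e-21) on the log2 scale in PBS than in UNT kidneys, where 7 of 8 leukocyte markers were also higher and their summed level rose from a range of 88.4 to 143.4 CPM in UNT to 592.9 to 1805 CPM in PBS kidneys. With treatment 0 of the 8 leukocyte markers were higher and 3 lower, while *Adcy7* was higher by 0.29 (SE 0.11, edgeR adjusted p = 0.0474). That call was lost without PBS replicate 9. The part of leukocytes in the shares was not tested.

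**Figure D2:**
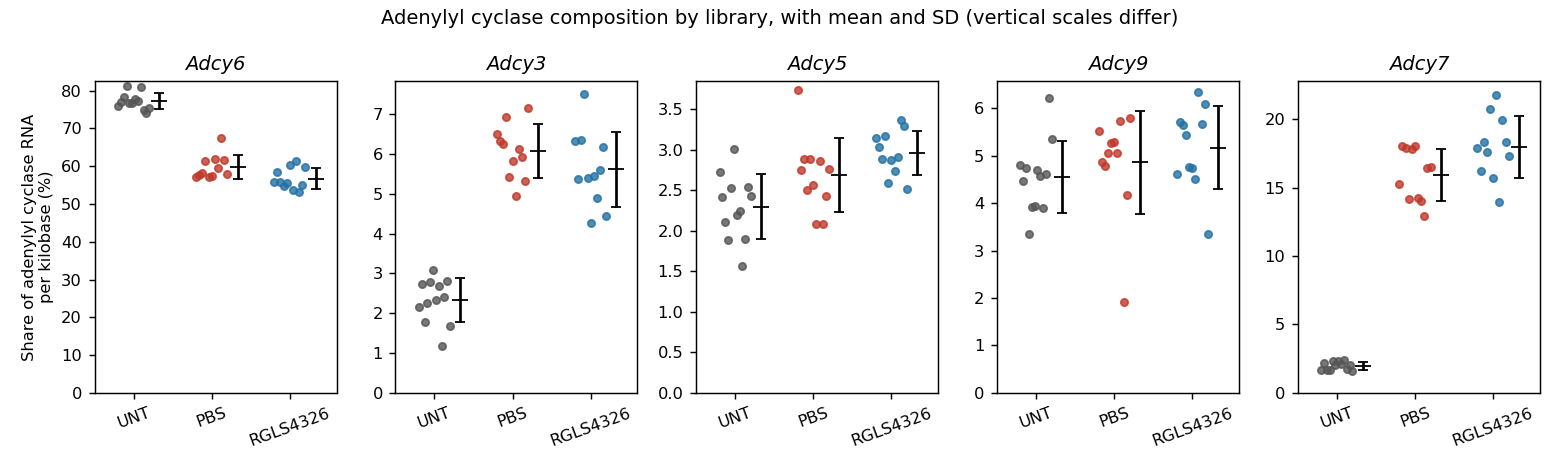
Share of adenylyl cyclase RNA per kilobase of exon (percent, vertical axes from 0, scales differ) for the 4 cyclases examined here and *Adcy7*; points are libraries and bars the mean with its SD. *Adcy6* fell from 77.2% in UNT to 59.9% in PBS kidneys, *Adcy3* rose from 2.33% to 6.07%, and *Adcy7* rose from 1.97% to 15.96%.

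Both phosphodiesterase genes were lower in cystic kidneys, and *Pde4c* rose partway back with treatment. *Pde4c* (chromosome 8, 70723720 to 70751186, plus strand) encodes a cAMP-specific phosphodiesterase known to be located with polycystin-2 at primary cilia. It ranged from 140.3 to 215 CPM (median 179.8) in UNT, from 13.7 to 38.2 CPM (median 22.8) in PBS and from 24.98 to 54.3 CPM (median 36.0) in RGLS4326 kidneys. No kidney of either *Pkd2*-KO group reached the lowest UNT value. In disease the log2 difference in *Pde4c* was -2.76 (SE 0.15, edgeR adjusted p = 8.96e-19), the largest in size of the 10 genes, which is a level 0.147 times that of UNT. RGLS4326 raised it by 0.55 (SE 0.14, edgeR adjusted p = 0.00602), with 9 of 11 kidneys above the PBS mean of 26.2 CPM, and the residual difference was -2.21 (SE 0.14, adjusted p = 3.36e-16).

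Within blocks 1, 2 and 3 the treatment difference in *Pde4c* was 0.81 (edgeR adjusted p = 0.0426), 0.64 (adjusted p = 0.0224) and 0.42 (adjusted p = 0.366). Adjusted for no-gene reads it was 0.27 (edgeR adjusted p = 0.228). Across libraries *Pde4c* rose with that share (Pearson r = 0.634, adjusted permutation p = 0.0017; Spearman rho = 0.687, adjusted permutation p = 0.00065; r = 0.598 without the 2 farthest libraries). Within blocks 1, 2 and 3 r was 0.484, 0.78 and 0.541. Markers of several kidney cell types moved in the same directions as *Pde4c*, among them proximal tubule and distal convoluted tubule. In the disease contrast 10 of 10 and 4 of 4 were lower, and in the treatment contrast 6 of 10 and 2 of 4 were higher, with summed proximal tubule levels of 12280 to 16540, 844.0 to 3477 and 2247 to 3793 CPM in UNT, PBS and RGLS4326 kidneys. Of markers of thick ascending limb, podocytes and endothelial cells, 6 of 7, 4 of 5 and 4 of 6 were lower in the disease contrast and 4 of 7, 4 of 5 and 5 of 6 higher with treatment. The opposite call was made for 1, 1 and 2 markers of these lists in the disease contrast and for 1, 0 and 0 with treatment. Of 7 intercalated cell markers, 5 were lower in the disease contrast, and 0 were higher and 2 lower with treatment. The part of these cell types in the result was not tested. The gene most like *Pde4c* across libraries was *Baiap2l2* (r = 0.88).

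*Pde1a* (chromosome 2, 79834453 to 80129458, minus strand), which encodes a phosphodiesterase activated by calcium and calmodulin, ranged from 63.1 to 110.6 CPM (median 77.2) in UNT, from 49.9 to 69.6 CPM (median 63.2) in PBS and from 52.9 to 74.3 CPM (median 63.9) in RGLS4326 kidneys. The groups overlapped, with the PBS and RGLS4326 medians just above the lowest UNT value, and all 11 PBS kidneys lay below the UNT mean of 82.0 CPM. PBS kidneys had less *Pde1a* than UNT kidneys, by -0.42 on the log2 scale (SE 0.08, edgeR adjusted p = 1.1e-05), and the treatment difference was 0.03 (95% confidence interval -0.13 to 0.19, adjusted p = 0.766). The disease difference in *Pde1a* was -0.24, -0.37 and -0.67 within blocks 1, 2 and 3 (edgeR adjusted p = 0.0442, 0.0082 and 0.000686). The residual difference of -0.38 (edgeR adjusted p = 4.21e-05) was not called within block 1 (-0.15, adjusted p = 0.149).

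*Prkar1a* (chromosome 11, 109649405 to 109669656, plus strand), whose promoter held the element printed above, was slightly higher in both *Pkd2*-KO groups. It ranged from 301.8 to 341.0 CPM (median 308.3) in UNT, from 330.3 to 417.3 CPM (median 358.7) in PBS and from 349.4 to 433.4 CPM (median 376.2) in RGLS4326 kidneys. All RGLS4326 kidneys lay above all UNT kidneys, whereas the PBS and UNT ranges touched only through UNT replicate 10, the highest of its group. *Prkar1a* was higher in disease by 0.22 on the log2 scale (SE 0.04, edgeR adjusted p = 3.04e-05). It differed by 0.06 (95% confidence interval -0.03 to 0.15, adjusted p = 0.304) in the treatment contrast and 0.27 (SE 0.04, adjusted p = 7.18e-07) in the residual contrast. Adjusted for no-gene reads, a share whose UNT and PBS ranges did not overlap, the disease difference in *Prkar1a* was 0.09 and was not called (edgeR adjusted p = 0.122). It was also not called within block 3 (0.14, edgeR adjusted p = 0.28), nor was the residual difference there (0.24, adjusted p = 0.074).

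The exit channel for chloride, *Cftr* (chromosome 6, 18170687 to 18322768, plus strand), was higher in cystic kidneys, and its treatment difference did not pass the test. It ranged from 6.72 to 16.5 CPM (median 8.41) in UNT, from 8.12 to 24.8 CPM (median 14.6) in PBS and from 12.3 to 28.8 CPM (median 16.9) in RGLS4326 kidneys. All 11 RGLS4326 kidneys and 10 of 11 PBS kidneys lay above the UNT mean of 9.27 CPM, but the ranges overlapped, with UNT replicate 10 at 16.5 CPM. *Cftr* was higher in disease by 0.69 on the log2 scale (SE 0.17, edgeR adjusted p = 0.0005). It differed by 0.30 (95% confidence interval -0.06 to 0.66, adjusted p = 0.175) in the treatment contrast and 0.99 (SE 0.17, adjusted p = 4.08e-06) in the residual contrast.

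The disease difference in *Cftr* was not the same in every block. In blocks 1 and 2 it was 0.79 (edgeR adjusted p = 0.0031) and 1.31 (adjusted p = 0.000109), and no PBS kidney overlapped a UNT kidney. In block 3 it was -0.15 (edgeR adjusted p = 0.663), with 8.12 to 12.1 CPM in 4 PBS kidneys and 7.81 to 16.5 CPM in 4 UNT kidneys. The treatment difference in *Cftr* was 0.11, 0.05 and 0.86 in blocks 1 to 3 (edgeR adjusted p = 0.772, 0.889 and 0.262), and in block 3 all 4 RGLS4326 kidneys (12.3 to 28.8 CPM) lay above all 4 PBS kidneys. The residual difference was 0.91, 1.36 and 0.72 in blocks 1 to 3 (edgeR adjusted p = 0.000831, 0.00017 and 0.0414).

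**Figure D3:**
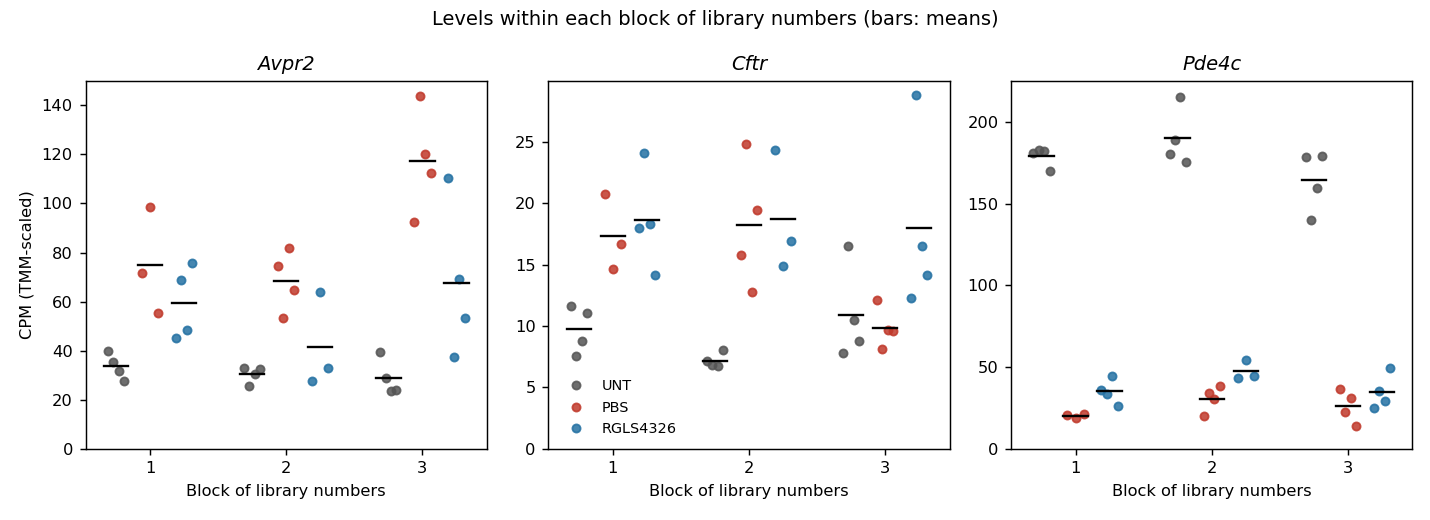
CPM of *Avpr2*, *Cftr* and *Pde4c* (vertical axes from 0, scales differ) in each block of library numbers (horizontal axis); points are libraries coloured by group and bars are means. In block 3 the 4 PBS kidneys had *Avpr2* of 92.6 to 143.9 CPM and *Cftr* that overlapped UNT, while *Pde4c* was far below UNT in every block.

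*Slc12a2* (chromosome 18, 57878678 to 57946821, plus strand), the entry step for chloride, did not pass the test in any of the 3 contrasts over all libraries. Its median was 67.6 CPM in UNT, 70.0 CPM in PBS and 78.1 CPM in RGLS4326 kidneys, and the ranges overlapped widely (57.2 to 91.8, 46.0 to 90.2 and 57.9 to 87.8 CPM). The log2 fold change of *Slc12a2* was 0.04 (95% confidence interval -0.14 to 0.22, edgeR adjusted p = 0.655) in the disease contrast, 0.11 (interval -0.07 to 0.30, adjusted p = 0.327) in the treatment contrast and 0.16 (interval -0.02 to 0.33, adjusted p = 0.104) in the residual contrast. These intervals leave out a change of 1 on the log2 scale in either direction. Leaving out UNT replicate 10 gave a residual difference of 0.20 (edgeR adjusted p = 0.0317) and leaving out RGLS4326 replicate 8 also gave a call. Within block 2 alone *Slc12a2* was called higher in the disease contrast (0.20, edgeR adjusted p = 0.0313) and in the residual contrast (0.36, adjusted p = 0.00202). Within block 3 these differences were -0.29 (edgeR adjusted p = 0.163) and -0.08 (adjusted p = 0.734).

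**Figure D4:**
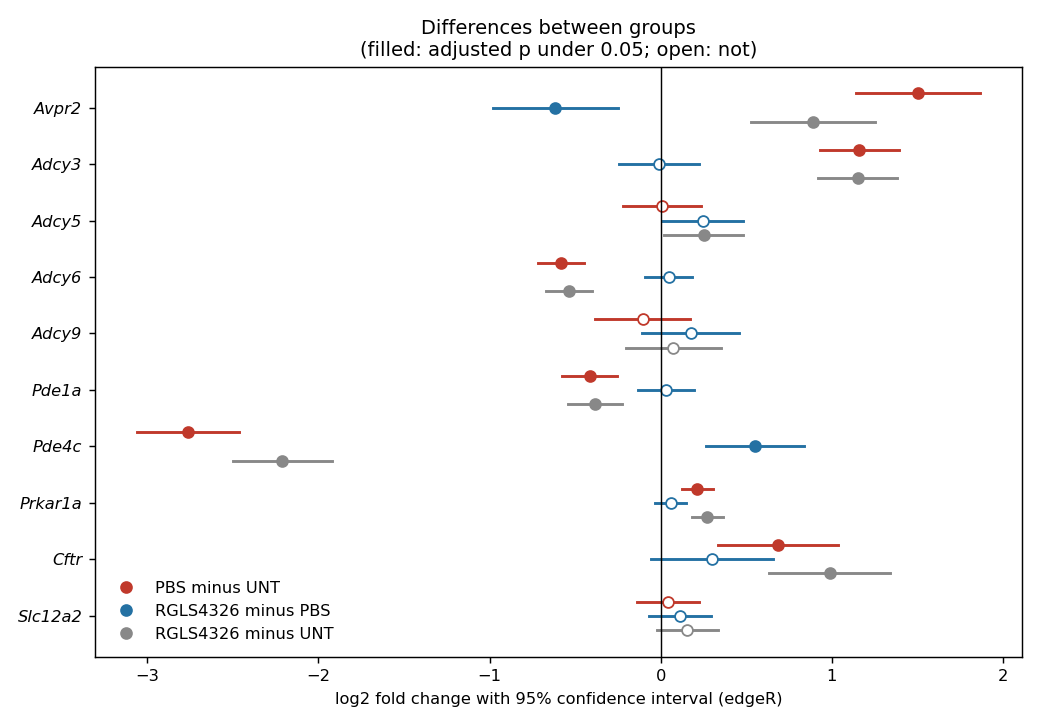
Log2 fold change (horizontal axis) of each gene in the disease (PBS minus UNT), treatment (RGLS4326 minus PBS) and residual (RGLS4326 minus UNT) contrasts, with 95% confidence intervals from edgeR; filled points passed an adjusted p of 0.05. In the treatment contrast only *Avpr2* (-0.62) and *Pde4c* (0.55) are filled.

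*Avpr2* and *Cftr*, the receptor and the channel at either end of the pathway, both rose in the disease contrast but varied in opposite directions among mice of each *Pkd2*-KO group. After group means were subtracted, their levels on the log2(CPM + 0.5) scale had a Pearson r of -0.622 across 34 libraries (permutation within groups, adjusted p = 0.0024 over all 45 pairs of the 10 genes) and a Spearman rho of -0.621 (adjusted permutation p = 0.0072). Pearson's r was -0.917 in PBS, -0.632 in RGLS4326 and -0.109 in UNT kidneys. It was -0.576 without the 2 libraries farthest in *Avpr2* (RGLS4326 replicates 5 and 8), -0.884 in PBS kidneys without replicate 9, and -0.165, -0.716 and -0.673 within blocks 1, 2 and 3. The 4 PBS kidneys of block 3 had the lowest *Cftr* of their group (12.1, 8.12, 9.70 and 9.55 CPM), and their *Avpr2* (92.6, 143.9, 120.2 and 112.6 CPM) was above that of every other PBS kidney except replicate 2 (98.4 CPM). The permutation did not keep blocks apart, so this shift between blocks is part of r and of its p-value.

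**Figure D5:**
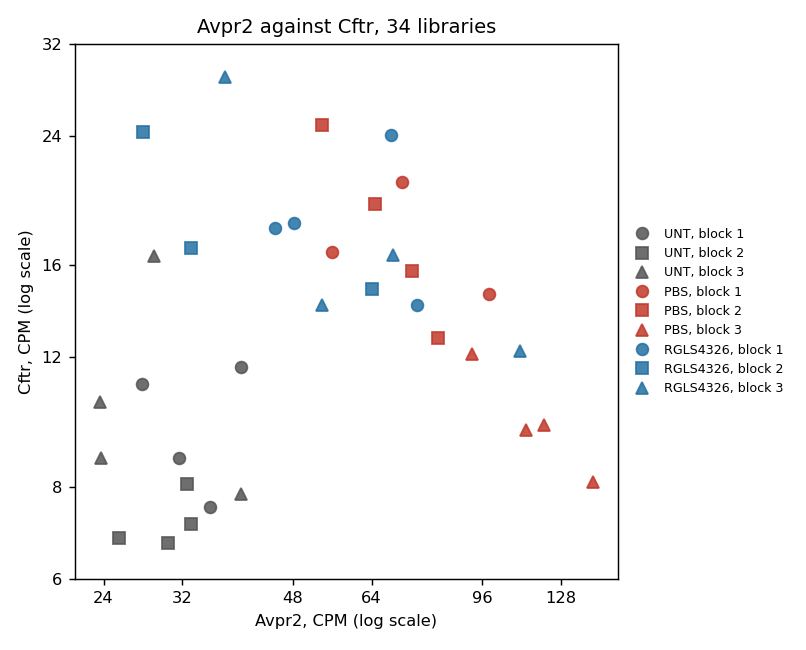
*Avpr2* (horizontal) against *Cftr* (vertical), both in CPM on log scales, in 34 kidneys; colour gives the group and the marker shape the block of library numbers. PBS kidneys run from high *Cftr* and low *Avpr2* to low *Cftr* and high *Avpr2* (r = -0.917, n = 11).

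*Cftr* was also expressed relative to the principal cell markers. Its log2 level minus the marker mean averaged -3.21 ± 0.44 (SD) in the 12 UNT kidneys, -3.67 ± 0.72 (n = 11) in PBS and -2.89 ± 0.74 (n = 11) in RGLS4326 kidneys. The difference between PBS and UNT was -0.46 (permutation test, adjusted p = 0.0735), and -0.51 with a pseudocount of 2 (adjusted p = 0.0478). Within blocks 1, 2 and 3 it was -0.18, 0.33 and -1.45 (exact permutation tests, adjusted p = 0.629, 0.419 and 0.0381). Between RGLS4326 and PBS, over all blocks, the difference was 0.78 (permutation test, adjusted p = 0.044, 9 of 11 RGLS4326 kidneys above the PBS mean). That call was lost without PBS replicate 9 (0.68, permutation test, adjusted p = 0.0827) and when *Aqp2*, *Aqp3* and *Hsd11b2* were the only markers (0.95, adjusted p = 0.0524). Within blocks 1, 2 and 3 the treatment difference was 0.27, 0.77 and 1.32 (exact permutation tests, adjusted p = 0.457, 0.419 and 0.0381). *Cftr* itself differed by 0.30 in the treatment contrast (edgeR adjusted p = 0.175), while 6 of the 10 markers were lower and 0 higher. The ratio therefore holds the fall of the markers as well as any change in *Cftr*, and does not give *Cftr* per principal cell. The genes most like *Cftr* across the 34 libraries were *Hspa13* (r = 0.84), *Galnt1* (r = 0.83) and *Picalm* (r = 0.828), and none is on the marker list.

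Levels of the 10 genes were compared with each other per kilobase of exon. In UNT kidneys the order of CPM per kilobase was *Prkar1a* (72.4 ± 2.61, SD), *Adcy6* (45.8 ± 4.63), *Pde4c* (31.8 ± 3.13), *Pde1a* (13.6 ± 2.40), *Avpr2* (10.7 ± 1.90), *Slc12a2* (6.31 ± 0.77), *Adcy9* (2.71 ± 0.57), *Adcy3* (1.38 ± 0.38), *Adcy5* (1.37 ± 0.32) and *Cftr* (1.19 ± 0.36). The last 3 lay within each other's SD. In PBS kidneys *Avpr2* (30.5 ± 9.92) stood level with *Adcy6* (30.5 ± 1.64), and *Pde4c* (4.68 ± 1.46) stood below *Slc12a2* (6.499 ± 1.22), with overlapping spreads. In RGLS4326 kidneys *Avpr2* (19.9 ± 8.17) was below *Adcy6* (31.5 ± 4.33), and *Pde4c* (6.87 ± 1.72) was within the spread of *Slc12a2* (7.03 ± 0.89).

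The rest of the pathway was followed in lists of 131 other genes, of which 126 were tested. In the disease contrast 56 were higher and 53 lower, and in the treatment contrast 27 were higher and 14 lower, beside the shares of all tested genes given above. In the edgeR treatment contrast adjusted for no-gene reads, 0 of the 126 were called, and 16 were higher and 8 lower at an unadjusted p under 0.05. DESeq2, without that adjustment, called 31 higher and 18 lower. The treatment values below are from the fit without the adjustment. All values in these lists are of whole kidney, and the part of changing cell types in them was not tested. Of 15 other receptors that raise cAMP, 5 were higher and 9 lower in the disease contrast. *Ptger4*, a prostaglandin E2 receptor, rose from 7.30 to 22.5 CPM (log2 fold change 1.62, edgeR adjusted p = 2.31e-20), and *Gcgr*, the glucagon receptor, fell from 57.8 to 9.31 CPM (log2 fold change -2.63, adjusted p = 1.89e-19). RGLS4326 changed 4 of the 15 by the test, and 3 of these were higher. Of 9 tested receptors that lower cAMP, 5 were higher and 4 lower in the disease contrast. *Adra2a*, an adrenergic receptor, was higher by 1.52 (edgeR adjusted p = 5.45e-09) and then lower with treatment by -0.93 (adjusted p = 0.0021), at 3.12, 8.98 and 4.71 CPM in UNT, PBS and RGLS4326 kidneys. Of 5 G protein subunits, *Gnai2*, an inhibitory alpha subunit, rose from 176.0 to 464.8 CPM (log2 fold change 1.40, edgeR adjusted p = 8.76e-18) and fell to 380.2 CPM with treatment (log2 fold change -0.29, adjusted p = 0.00973).

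Of 14 other phosphodiesterases, 9 were higher and 3 lower in the disease contrast. *Pde3a*, which is inhibited by cyclic GMP, rose from 7.13 to 15.7 CPM (log2 fold change 1.14, edgeR adjusted p = 4.49e-08, not called within block 3) and to 23.2 CPM with treatment (0.57, adjusted p = 0.00983), while *Pde4d*, a relative of *Pde4c*, fell from 46.1 to 26.9 CPM (-0.77, adjusted p = 2.49e-06). Of 10 PKA subunits, inhibitors and Epac genes, 4 were higher and 4 lower. The *Prkar1a* relative *Prkar1b* was higher by 0.88 (edgeR adjusted p = 2.02e-12), and *Rapgef3*, which encodes the cAMP sensor Epac1, was lower by -0.69 (adjusted p = 1.22e-11). With RGLS4326 the catalytic subunit *Prkaca* was lower by -0.21 (edgeR adjusted p = 0.0158) and the inhibitor *Pkia* higher by 0.47 (adjusted p = 0.0042). Of 11 tested A-kinase anchoring proteins, which tether PKA, 4 were higher and 5 lower in the disease contrast, with *Akap12* averaging 52.6 CPM (UNT) and 257.3 CPM (PBS) (2.29, edgeR adjusted p = 2.38e-16), and 5 were higher and 0 lower in the treatment contrast.

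Of 8 CREB family members and coactivators, 2 were higher and 2 lower in the disease contrast, led by *Crtc3* (0.94, edgeR adjusted p = 1.68e-15). Of 10 genes known to respond quickly to cAMP, which also respond to many other stimuli, 6 were higher and 4 lower. *Fos* rose from 1.81 to 27.1 CPM (log2 fold change 3.88, edgeR adjusted p = 9.1e-22), and *Ppargc1a* fell from 152.2 to 49.9 CPM (-1.61, adjusted p = 5.5e-13) and rose to 72.3 CPM with treatment (0.53, adjusted p = 0.00639, not called within block 2). *Fosb* was lower with treatment by -0.74 (edgeR adjusted p = 0.00825, not called within block 2).

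Other chloride transport genes moved both ways in cystic kidneys. Of 19 other chloride channels and exchangers, 7 were higher and 10 lower, and of 10 other cation-chloride cotransporters and their kinases, 4 were higher and 6 lower. *Ano1*, a calcium-activated chloride channel, rose from 23.8 to 64.3 CPM (log2 fold change 1.43, edgeR adjusted p = 6.8e-14). *Slc12a1* and *Slc12a3*, relatives of *Slc12a2* in the thick ascending limb and distal convoluted tubule, fell from 1912 to 443.2 CPM (-2.11, edgeR adjusted p = 2.74e-15) and from 1453 to 223.6 CPM (-2.70, adjusted p = 1.03e-19). With RGLS4326 *Slc12a3* rose by 0.62 (edgeR adjusted p = 0.00193), and 5 of the 10 cotransporter genes were higher and 1 lower. Of 11 potassium channels and partners of CFTR, 6 were higher and 4 lower in the disease contrast. *Kcnn4*, a calcium-activated potassium channel, was higher by 2.43 (edgeR adjusted p = 6.39e-14) and then lower with treatment by -0.53 (adjusted p = 0.0247), a call that was lost without PBS replicate 9 (-0.46, adjusted p = 0.0577) and also without PBS replicate 3 or within block 2.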

How the data were processed

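RNA-seq counts of 34 kidneys were analysed. The authors prepared stranded polyA libraries, sequenced paired ends, trimmed with Trim Galore, mapped with STAR to GRCm38 (mm10) and counted with HTSeq (version 0.6.1, per the submitters' processing notes), and deposited the unnormalized counts of reads, by gene symbol, in a separate table for every sample. Annotation and strand setting are not given in the sources used here. Groups came from the labels. The study states a smaller number of PBS mice for its RNA-seq than the tables labelled PBS, and which tables it used is not given in the sources used here, so every table labelled PBS entered. Totals that name no gene (reads in no gene, ambiguous or not unique) stayed out of library sizes; ambiguous reads were 0.323% to 0.488%. No 2 tables were identical (0 pairs).

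Counts were scaled by TMM, filtered with filterByExpr and tested with edgeR 4.0.16 quasi-likelihood (R 4.3.3), 3 groups in 1 fit, Benjamini-Hochberg adjusted. DESeq2 1.42.0 was an alternative. The procedure was tested on simulated data. Shares, ratios to markers and correlations used two-sided permutation tests with 100000 resamples (exact within blocks). Lengths, positions and 3′UTRs came from GENCODE M21, microRNAs and promoters from RefSeq (GRCm38.p6). Confidence intervals are 95%. Nothing says that replicates share litters, and p-values measure the spread between these mice. Python 3.11.15 with numpy 2.4.6, pandas 2.3.3, scipy 1.17.1 and matplotlib 3.10.9 was used.

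The genes examined and all lists were chosen with earlier results of these data known. Named genes were the 10 genes and *Pkd2*. Per list and contrast, up to 2 called genes with the highest and 2 with the lowest fold change were also named, and a selection is printed. The most similar gene was named for each of the 10 genes (3 for *Avpr2* and *Cftr*). It is printed for *Avpr2*, *Adcy3*, *Pde4c* and *Cftr*. *Arhgap4* and *Cenpo* were added as neighbours after their overlap was seen.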

Additional observations from a re-analysis of the deposited data

How the results depend on the processing

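Alternatives were DESeq2 size factors, the DESeq2 Wald test, no filter, fits of the 2 groups alone, the block of library numbers as a covariate, each block alone, a replicate block, adjustment for no-gene reads, and leaving out each library. Of 300 values of the 10 genes that left out no library, 261 kept direction and call, 18 lost and 3 gained a call and 18 changed sign; causes were not tested. Of 817 such values of the other named genes, 673 kept direction and call, 140 lost a call and 4 changed sign. Calls in the disease contrast (4 higher, 3 lower) became 2 higher in block 3, and calls in the residual contrast (5 higher, 3 lower) 3 higher in block 3. In the treatment contrast (1 higher, 1 lower), calls were 2 higher with the 2 groups alone, 0 higher in block 3 (1 at an unadjusted p under 0.05), 0 lower in blocks 1, 2 and 3 (0, 1 and 1 at an unadjusted p), 0 in either direction after adjustment for no-gene reads (2 higher and 0 lower at an unadjusted p under 0.05, by edgeR), and 1 to 2 higher when libraries were left out. Of all genes, 41 were called higher and 13 lower in block 1 and 0 in block 3 (2826 at an unadjusted p under 0.05, by edgeR), so the counts there say little about these genes. Among all genes that adjustment left 56 higher and 33 lower in treatment, and 3199 at an unadjusted p under 0.05.

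None of these sign changes was called under the alternative. In block 3 *Cftr* in the disease contrast, called in the full fit, was -0.15, and *Slc12a2* was -0.29 in the disease and -0.077 in the residual contrast. Treatment values in block 1 were -0.065 for *Adcy5*, -0.075 for *Adcy6*, -0.021 for *Slc12a2*, -0.011 for *Adcy7* and -0.020 for *Creb1*, the last 2 called in the full fit but not without PBS replicate 9 (0.26 and 0.28, edgeR adjusted p = 0.0851 and 0.055). They were -0.021 for *Prkar1a* in block 2, -0.0079 for *Pde1a* in block 3 and -0.090 for *Adcy6* after adjustment for no-gene reads. *Adcy3* in the treatment contrast was 0.0046 with no filter, 0.00020 with the block covariate, 0.015 in block 3, 0.0064 with the replicate block and -0.034 to 0.017 without single libraries. *Adcy5* in the disease contrast was -0.030 with DESeq2 size factors, -0.030 with the Wald test, -0.038 with no filter, -0.28 in block 2 and -0.045 to 0.066 without single libraries. *Adcy9* in the disease contrast was 0.057 in block 1. *Crtc1* in the disease contrast, called in the full fit, was -0.0027 in block 2, and *Creb1*, also called, was 0.16 after adjustment for no-gene reads.

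Within blocks 1, 2 and 3, with 3 or 4 kidneys a group, the disease difference was 4.13, 3.06 and 4.11 points for *Adcy3* and -20.4, -17.6 and -14.6 points for *Adcy6* (adjusted p 0.152, 0.0762 and 0.114 for both, in exact permutation tests that can hardly pass at this size). Share differences of the opposite sign, none called, were 0.031 (*Adcy3*) and -0.062 (*Adcy5*) in block 1 and -0.49 (*Adcy9*) in block 2 for treatment, and -0.61 (*Adcy9*) in block 3 for disease. Without division by length the treatment share of *Adcy6* was -3.65. Without PBS replicate 9 or UNT replicate 10, left out after seeing the data, the disease share difference of *Adcy5* was 0.45 (adjusted p = 0.049) or 0.35, and the treatment difference of *Cftr* relative to markers 0.68 or 0.78. Relative to markers, *Avpr2* in the disease contrast was 0.13 and 0.24 in blocks 1 and 2 (not called). *Cftr* in the disease contrast was -0.51 with a pseudocount of 2 (called), 0.33 in block 2 and -1.45 in block 3 (called), and in the treatment contrast 0.27 and 0.77 in blocks 1 and 2 and 0.95 with 3 markers (none called).

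The replicate block changed no call of the 10 genes in the disease (4 higher, 3 lower), treatment (1 and 1) or residual (5 and 3) contrast. Same-numbered libraries did not deviate together as a rule: r exceeded 0.1 in 10 of 33 pairs (-0.394 to 0.443), and own numbers were best in 2. No pairing by number was detected, and this check cannot show that same-numbered mice were unrelated.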

Other observations

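Among all 45 pairs of the 10 genes, 7 had an adjusted permutation p under 0.05 for Pearson's r after group means were subtracted, 4 positive and 3 negative. The positive pairs were *Cftr* with *Slc12a2* (r = 0.64, adjusted p = 0.0024; rho = 0.588, adjusted p = 0.0105; r = 0.553 without the 2 farthest libraries), *Adcy6* with *Pde4c* (r = 0.535, adjusted p = 0.0024; rho = 0.56, adjusted p = 0.0072; r = 0.465 without them), *Adcy5* with *Adcy9* (r = 0.641, adjusted p = 0.00247; rho = 0.477, adjusted p = 0.0499; r = 0.493 without them) and *Adcy3* with *Adcy5* (r = 0.64, adjusted p = 0.00504; rho = 0.492, adjusted p = 0.0805; r = 0.49 without them). In blocks 1, 2 and 3, r was -0.387, 0.651 and 0.699 for *Cftr* with *Slc12a2*, 0.639, 0.831 and 0.46 for *Adcy6* with *Pde4c*, 0.748, -0.13 and 0.823 for *Adcy5* with *Adcy9*, and 0.228, 0.41 and 0.697 for *Adcy3* with *Adcy5*. Beside *Avpr2* with *Cftr*, the negative pairs were *Adcy6* with *Prkar1a* (r = -0.553, adjusted p = 0.00645; rho = -0.371, adjusted p = 0.207; r = -0.308 without the 2 farthest libraries) and *Avpr2* with *Slc12a2* (r = -0.518, adjusted p = 0.0193; rho = -0.385, adjusted p = 0.207; r = -0.443 without the 2 farthest libraries). Neither of these 2 passed by rank. For *Avpr2* with *Slc12a2*, r within blocks 1, 2 and 3 was -0.033, -0.599 and -0.46. *Adcy6* with *Prkar1a* had an r of 0.57 within block 2, against -0.769 and -0.485 in blocks 1 and 3. *Adcy6* rose with the no-gene read share (r = 0.661, adjusted permutation p = 2e-04; rho = 0.703, adjusted p = 1e-04; r = 0.59 without the 2 farthest libraries) and *Prkar1a* fell (r = -0.603, adjusted permutation p = 0.00343; rho = -0.541, adjusted p = 0.0147; r = -0.459 without them).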
